A study of Mus musculus with 6 samples.

Results

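The colon epithelium of unchallenged Ube2f flox mice was described across 28500 genes from 3 messenger RNA libraries, the members chosen being all libraries labelled Ube2f_flox, 3 of the 6 in the series. The series asks how loss of Ube2f, an E2 enzyme that passes the ubiquitin-like protein NEDD8 to cullins, alters the colon epithelium. The other libraries come from mice with an epithelial deletion and were not analysed here, so no genotype is compared with another. The 3 mice carried the floxed Ube2f allele, were labelled wild type for that gene, and were males of 8 weeks. They had normal drinking water. The labels give them as untreated with DSS, a colitis-inducing agent, and name no drug. The labels do not say whether a Cre transgene was present or absent in these controls. Epithelium was released from opened colon pieces in 5 mM EDTA in phosphate-buffered saline at 37 °C for 30 min and passed through a 40 µm strainer. The preparation is therefore a bulk one, in which fewer cells of a type and less RNA per cell cannot be told apart.

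The colon lining is a single layer of cells renewed from stem cells at the crypt base. Absorptive colonocytes take up sodium, chloride, water and the short-chain fatty acids made by bacteria, goblet cells secrete the mucus, and sparse enteroendocrine and tuft cells release hormones and other mediators. Keratins, junction proteins and secreted antibacterial proteins keep the surface intact, and the cells draw much of their energy from mitochondrial oxidation of butyrate.

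Levels between genes are given as FPKM, the authors' values scaled by gene length and library size, and the spread between libraries as CPM, which is the count relative to a library size corrected by TMM (trimmed mean of M values). FPKM carries no TMM correction and can fall from replicate 1 to 3 where CPM does not. The RNA ligase Rtcb, at 111 CPM in each library, had 40.4, 38.7 and 35.8 FPKM in replicates 1, 2 and 3. Falls of that size in FPKM, which also enter its SD, are not read as differences between libraries. Totals were 77524693, 71240407 and 63247380 counts in replicates 1, 2 and 3. Of the 28500 genes, 26141 had a count in at least 1 library, 19363 had one in every library and 10649 reached 1 FPKM in each of the 3. Of these 10649 genes, 9675 were protein coding. No test was possible within a single group, so the results are values, ranges and counts, and the spread is that between 3 libraries labelled as separate mice.

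The labelled cell type was checked against its markers. Epcam, a surface protein of epithelial cells, stood at 533, 519.9 and 474 FPKM in replicates 1, 2 and 3. E-cadherin (Cdh1) stood at 197, 172 and 162 FPKM and villin (Vil1), an actin bundler of the brush border, at 261, 246 and 231 FPKM. All 39 genes of the absorptive colonocyte list passed 1 FPKM in every library. Defining genes of connective tissue and muscle were close to 0: collagen Col1a1 had 25, 4 and 27 counts and smooth muscle actin Acta2 had 14, 7 and 20 counts. Of the 21 fibroblast genes, 20 were in the table and 11 passed the low-count filter. The 20 summed to 0.0159, 0.0163 and 0.0173% of nuclear FPKM in replicates 1, 2 and 3. Of the 14 endothelial genes, 12 were in the table and 6 passed, and the 12 summed to 0.000947, 0.000701 and 0.00109%. Of the 12 smooth muscle genes, 11 were in the table and 5 passed, and the 11 summed to 0.0058, 0.00565 and 0.00614%. Leukocyte genes were low but present, and are described with the genes that differed between libraries. The male label was matched by counts from the Y chromosome: Ddx3y stood at 6.23, 8.35 and 9.13 FPKM, and Xist, the RNA of the inactive X, had 0, 91 and 18 counts.

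Mitochondrial transcripts held the top of the ranking. The 37 genes of the mitochondrial genome took 30.2, 34.0 and 40.4% of the summed FPKM in replicates 1, 2 and 3, and 13.4, 16.0 and 21.3% of the counts. mt-Co1, a core subunit of cytochrome oxidase, was first of all genes with 39461, 48044 and 61440 FPKM. In a group of 7 pseudogenes on chromosome 1 that copy mitochondrial genes, the summed FPKM came to 12.8, 14.1 and 17.1% of the total. How reads matching both places were counted is not stated in the labels or headers, so these copies and their mitochondrial originals cannot be told apart. Because FPKM shares add to a fixed whole, nuclear levels are also given as shares of the FPKM left after both sets were removed. The 10 highest genes of all held 40.2 ± 5.64% (SD, n = 3) of the summed FPKM. Among nuclear genes the 10 highest held 9.89 ± 0.362%, the 100 highest 27.9 ± 0.0935% and the 1000 highest 61.0 ± 0.288%. It took 512 nuclear genes to reach 50% of nuclear FPKM.

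The highest nuclear product was Car1, carbonic anhydrase 1, which interconverts carbon dioxide and bicarbonate in colonocytes (chr3:14766216-14808368 on the minus strand, GRCm38). Its level was 7264, 4562 and 3952 FPKM in replicates 1, 2 and 3, a mean of 5259 ± 1763 (SD, n = 3), and it took 3.18, 2.12 and 2.01% of nuclear FPKM. Replicate 1 was the high library and the range was 0.70 log2 CPM. Lypd8, a membrane-anchored protein that in mouse colon holds flagellated bacteria away from the surface (chr11:58379043-58390728, plus strand), followed with 3180, 3806 and 3508 FPKM. Krt8, the type II keratin of simple epithelia (chr15:101996698-102004482, minus strand), came next with 3257, 3000 and 2498 FPKM. The lowest Car1 library lay above the highest Lypd8 library, whereas the Lypd8 and Krt8 libraries overlapped, so the order of Lypd8 and Krt8 is within the spread. By CPM, which is not divided by gene length, Lypd8 ranked 8 and Krt8 ranked 4 among nuclear genes, and Car1 kept rank 1. That rank rests on replicate 1: Dmbt1, second by mean CPM, had more counts than Car1 in replicates 2 and 3, with 514114 and 371259 against 448918 and 347924.

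The next named nuclear genes combined housekeeping with epithelial function. Translation elongation factor Eef1a1 had a mean of 1909 ± 81.7 FPKM (SD, n = 3 here and below). Guca2a, the precursor of guanylin, a peptide that acts on guanylate cyclase C and fluid secretion, had 1492 ± 62.3 FPKM. Krt19 had 1424 ± 241, cytoplasmic actins Actg1 and Actb 1206 ± 47.8 and 1015 ± 64, and galectin Lgals4 1067 ± 93.1 FPKM. The transcription factor Fos, usually a short-lived immediate early product, stood between the actins with 1160 ± 108 FPKM. Further down the 30 highest were Dmbt1, a secreted scavenger receptor that binds bacteria (846 FPKM), the adhesion molecule Ceacam1 (793 FPKM), galectin Lgals3 (750.1 FPKM), Pigr, which carries IgA across the epithelium (668 FPKM), and keratin Krt20 of surface cells (607 FPKM). Sprr2a1 and Sprr2a2, small proline-rich proteins, had 736 and 719.7 FPKM, but are near-identical neighbours whose reads may have been split or counted for both, so their separate levels are uncertain. The 4 keratins Krt8, Krt18, Krt19 and Krt20 together took 2.48 ± 0.112% of nuclear FPKM and 88 cytosolic ribosomal protein genes 5.78 ± 0.211%.

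**Figure D1:**
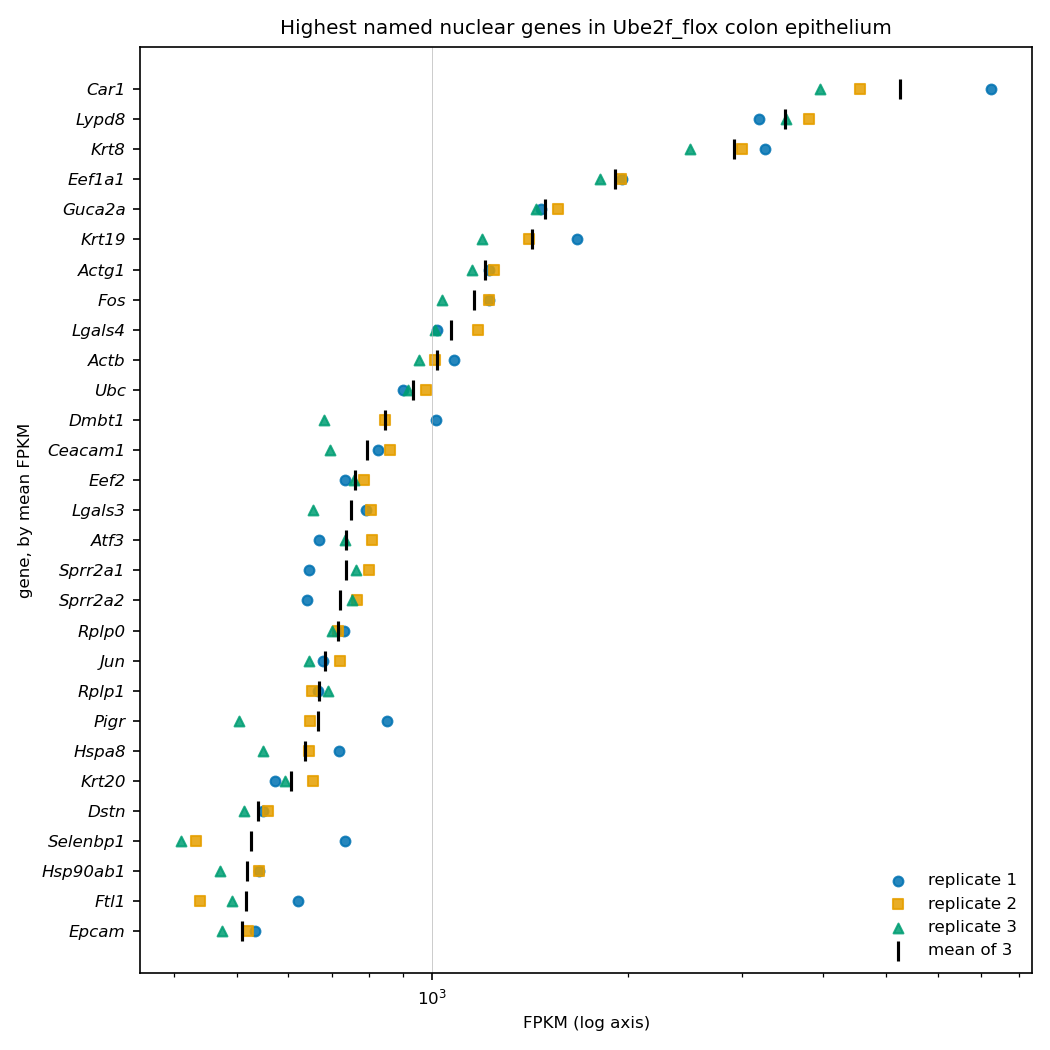
FPKM (log axis) of 29 of the 30 highest named nuclear genes in the 3 Ube2f_flox libraries, with circles, squares and triangles for replicates 1, 2 and 3 and a black tick for the mean. Car1 leads with a mean of 5259 FPKM, and for most genes the 3 symbols nearly coincide, with Car1, Pigr and Selenbp1 spread furthest toward replicate 1.

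Between libraries, most genes differed little. Of 16004 genes kept by the low-count filter, the median gap from the lowest to the highest library was 0.36 log2 CPM, a 1.28-fold difference, and the common biological coefficient of variation was 22.99%. A gene was called variable where that gap reached 2-fold, which 2426 of the 16004 genes did (15.2%). The share depended on level. It was 43.4% under 1 CPM, 22.7% from 1 to 10 CPM, 2.96% from 10 to 100 CPM and 1.77% from 100 to 1000 CPM, and of 8942 genes at 10 CPM or more it was 2.78% (249 genes). Counts of variable members of any list are to be read against the 15.2% of all kept genes. Those of weakly expressed lists are to be read against the higher shares at low level. Replicate 1 was the lowest library in 1497 of the 2426 variable genes (61.7%) and replicate 3 the highest in 1275 (52.6%). These shares cover variable genes only and are not given for all kept genes. Counts of highest or lowest libraries in lists without variable members thus have no background here. By pairs, 1274 genes (7.96%) differed 2-fold between replicates 1 and 2, 1626 (10.2%) between replicates 1 and 3, and 919 (5.74%) between replicates 2 and 3. TMM scaling moved replicates 1 and 3 apart by 0.15 log2 relative to library totals, so gaps of that size or smaller in a whole list depend on the scaling.

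**Figure D2:**
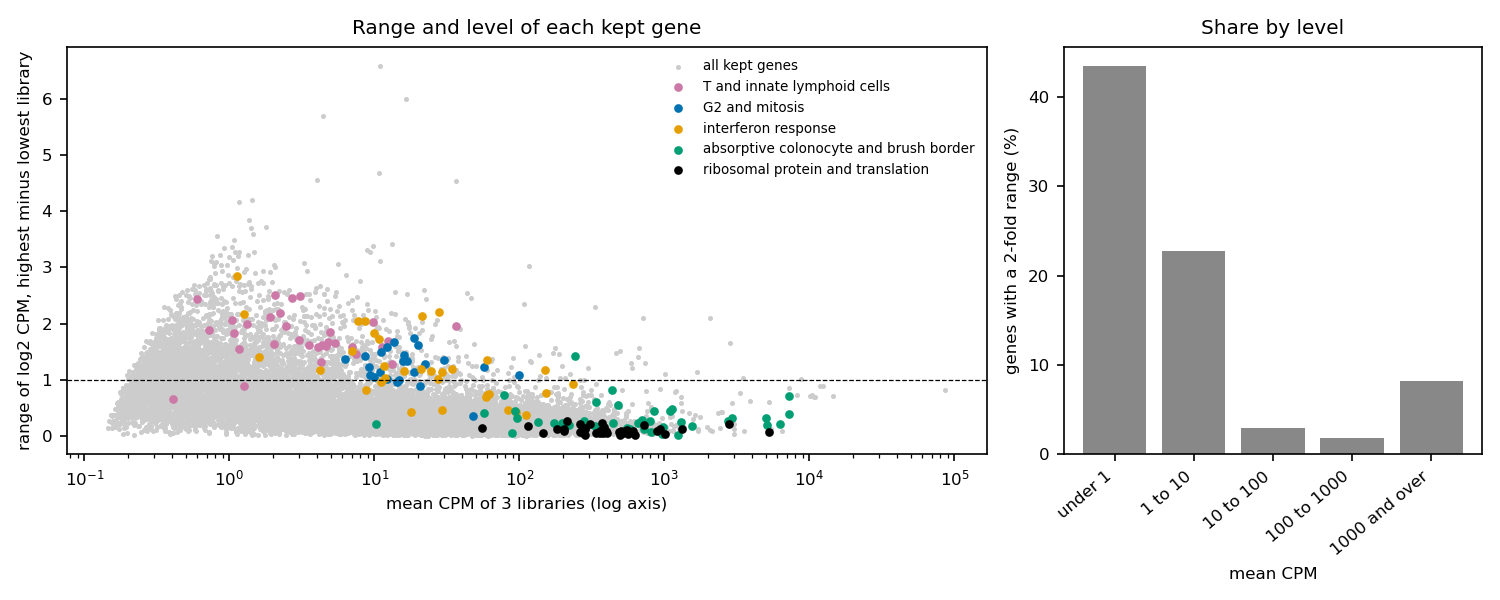
Left, range of log2 CPM between the highest and lowest library against mean CPM (log axis) for 16004 kept genes, with the 2-fold line dashed and 5 gene lists coloured. Right, percentage of genes with a 2-fold range by level, 43.4% under 1 CPM and 1.77% from 100 to 1000 CPM, while 6 of 73 genes (8.22%) at 1000 CPM or more passed it.

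The absorptive colonocyte and brush border list held the highest share of nuclear FPKM among the lists. It also contains general epithelial genes such as Krt8 and Epcam, and it shares members with other lists. Among these are Lypd8, Dmbt1 and Saa1 with the antimicrobial list and Car1, Car2, Car4 and Slc26a3 with the transport list. Its share therefore depends on how the list was composed. Its 39 genes held 11.1 ± 0.375% of nuclear FPKM, the largest among the lists of nuclear genes, and 1 of the 39 was variable (2.56%), close to the 2.78% over all genes of at least 10 CPM. That member was Saa1, a serum amyloid apolipoprotein of the acute phase, with 132, 241 and 355 CPM and replicate 3 highest. Villin (Vil1) was a member of narrow range, at 973, 955 and 972 CPM. The cadherin Cdhr5, which links microvilli tip to tip, had 706, 820.2 and 853 CPM and was lowest in replicate 1. Aqp8, a water channel of colonocytes, had 325, 415 and 572 CPM and was lowest in replicate 1. The median member range was 0.25 log2, against 0.20 over all genes of 100 to 1000 CPM and 0.33 over those of 1000 CPM or more. Of the junction genes 1 of 31 was variable (3.23%), also near that background. Claudins Cldn3 and Cldn7 led them at 502 ± 17.5 and 320.0 ± 15 FPKM. Cldn4 was the 1 variable claudin, at 69.9, 118 and 174 CPM, with replicate 3 highest and replicate 1 lowest.

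Transport of sodium, chloride and bicarbonate was led per length by Car1. Atp1b1, the beta subunit of the sodium pump, had 300.3 ± 32.3 FPKM. Car2, the cytosolic partner of Car1, had 321 ± 71.4 FPKM. At the surface, the chloride-bicarbonate exchanger Slc26a3 stood at 105, 86.2 and 89.1 FPKM, the sodium-hydrogen exchanger Slc9a3 at 61.3, 55.8 and 47.3 and Slc9a2 at 33.9, 39.5 and 33.8 FPKM. The secretory chloride channel Cftr stood at 24.8, 19.1 and 16.3 FPKM and the basolateral loading cotransporter Slc12a2 at 25.1, 21 and 22.7 FPKM. Cftr and Slc12a2 overlapped in their libraries, and both lay below every Slc26a3 and Slc9a3 value. The epithelial sodium channel was uneven by subunit: alpha (Scnn1a) had 17.5, 17 and 15.7 FPKM, beta (Scnn1b) 1.17, 1.7 and 2.08 and gamma (Scnn1g) 0.362, 0.685 and 0.627 FPKM. Of the 27 kept genes of the list 1 was variable (3.7%, against 15.2% of all kept genes), Scnn1b, at 3.22, 4.91 and 6.5 CPM. With library totals in place of TMM it was no longer past 2-fold. Hsd11b2, the enzyme that shields the mineralocorticoid receptor from glucocorticoid, had 155 ± 11.7 FPKM and a range of 0.07 log2 CPM.

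Among potassium and water genes, 1 of 15 was variable (6.67%, against 15.2% of all kept genes). That was the water channel Aqp4, with 286, 182 and 121 CPM and replicate 1 highest. At 10 CPM or more 1 of 13 was variable (background 2.78%). Aqp8 (247 ± 55.1 FPKM) was the highest water channel, followed by Aqp1 (37.6 ± 4.2) and Aqp4 (29 ± 13.8), whose libraries overlapped. Kcne3, a regulatory subunit of basolateral potassium channels, had 57.9, 40.0 and 35.4 FPKM, and the colonic proton-potassium pump Atp12a had 15.9, 15.6 and 21 FPKM.

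Among nutrient, metal and organic anion carriers 10 of 39 were variable (25.6%, against 15.2% of all kept genes). The leading members were Abcb1a, a drug efflux pump, at 119 ± 4.82 FPKM, the amino acid carrier Slc6a14 at 96.1 ± 17.3, and Slc16a1, which carries butyrate and lactate, at 92.2 ± 21.5 FPKM. Slc5a8, the sodium-coupled carrier for short-chain fatty acids, stood at 42.3, 28.7 and 24.7 FPKM. Slc37a2, a sugar phosphate exchanger, had 1170, 396 and 435 CPM. Replicate 1 was the high library for Slc37a2 and also for the phosphate carrier Slc20a1, at 707, 418 and 402 CPM. In Slc34a2, another phosphate carrier, replicate 1 was instead the lowest, with 4.0, 12.4 and 8.96 CPM, as it was in the metal exporter Slc30a10, with 11.5, 26.6 and 17.8 CPM. Between replicates 2 and 3 alone, 1 of the 39 differed 2-fold, against 8 between replicates 1 and 2 and 6 between replicates 1 and 3. At 10 CPM or more, 3 of 31 were variable (background 2.78%).

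**Figure D3:**
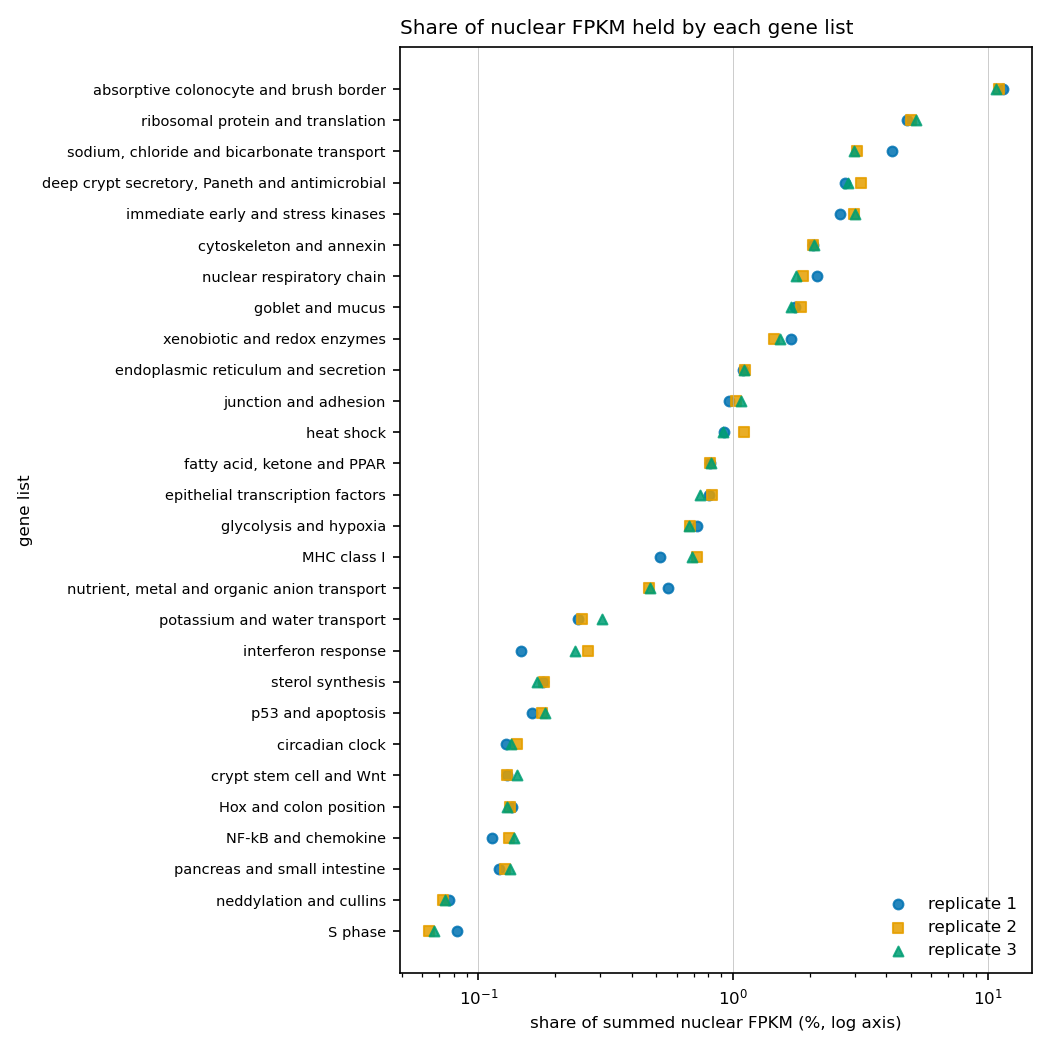
Share of summed nuclear FPKM (percent, log axis) held by the 28 gene lists of largest share, with circles, squares and triangles for replicates 1, 2 and 3. The absorptive list leads with 11.1% and is followed by ribosomal proteins and translation with 5.01%.

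Goblet cell and mucus genes held 1.77 ± 0.0782% of nuclear FPKM, and 3 of 27 kept were variable (11.1%, against 15.2% of all kept genes). At 10 CPM or more 3 of 26 were variable (background 2.78%). The membrane mucin Muc13 was highest with 469.6 ± 43.9 FPKM. Muc2, the gel-forming mucin of the mucus layer, stood at 454, 412 and 403 FPKM with a range of 0.08 log2 CPM. The membrane mucin Muc17, listed in older annotation as Muc3, had 348 ± 16.7 FPKM, Tff3, a trefoil peptide, 216 ± 25.2, and Zg16, a lectin that binds Gram-positive bacteria, 242 ± 31.7 FPKM. The 3 variable members were secreted products, and in each replicate 2 was highest and replicate 3 lowest. The metalloprotease-like mucus protein Clca1 had 732, 1130 and 265 CPM. Fcgbp, which becomes bound to Muc2 in the mucus, had 1893, 2143 and 970.0 CPM. Retnlb, a resistin-like antibacterial peptide, had 88.9, 128 and 61.5 CPM. The libraries thus differed 4.26-fold in Clca1 while Muc2 differed by 0.08 log2. Between replicates 1 and 2 none of the 27 differed 2-fold, and between replicates 2 and 3 all 3 did. Spdef, a transcription factor of secretory cells, was lowest in replicate 2, with 129.6, 87.9 and 147 CPM.

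Antimicrobial and deep crypt secretory genes held 2.92 ± 0.237% of nuclear FPKM, most of it from Lypd8, Dmbt1 and Pigr. Reg4, the marker of deep crypt secretory cells, had 462, 385 and 365 FPKM and a range of 0.20 log2 CPM. Of 33 genes 26 were kept and 12 were variable (46.2%, against 15.2% of all kept genes). At 10 CPM or more 7 of 20 were variable (background 2.78%). Ang4, a bactericidal ribonuclease, differed most, at 30.6, 75.4 and 3.24 CPM, 23.1-fold between replicates 2 and 3. Mptx1, a pentraxin of mouse intestine, had 328, 551 and 112 CPM, with replicate 2 again highest and replicate 3 lowest. The lectin Itln1 was also highest in replicate 2, but lowest in replicate 1, at 1.16, 4.17 and 2.58 CPM. Lyz1, the Paneth cell lysozyme, was near 0 with 21, 15 and 0 counts. By pairs, 6, 8 and 5 of the 26 differed 2-fold between replicates 1 and 2, 1 and 3, and 2 and 3.

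Crypt genes comprised a stem cell list and lists of the cell cycle. Of 26 kept stem cell and Wnt genes, 1 was variable (3.85%, against 15.2% of all kept genes). That was Tcf7, a transcription factor of Wnt signalling also made by T cells, at 9.48, 10.1 and 22.8 CPM. Lgr5, the receptor that marks crypt base stem cells, had 13.2, 16.6 and 20.1 CPM. Hes1, a Notch target, was highest at 62.7 ± 1.11 FPKM, and Olfm4, a stem cell product of small intestine, had 0, 0 and 4 counts.

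Genes of mitosis differed more, and in 1 direction. Of 24 kept G2 and mitosis genes, 21 were variable (87.5%), and 16 of 19 at 10 CPM or more (background 2.78%). Replicate 1 was highest in all 24 and replicate 3 lowest in 22. Ube2c, an E2 enzyme of the anaphase-promoting complex, had 32, 14.6 and 9.53 CPM. The cyclin Ccnb2 had 24.2, 8.86 and 7.64 CPM, Cdc20, an activator of that complex, 34.2, 14.7 and 11.2, and the proliferation marker Mki67 149, 80.3 and 70.5 CPM. Plk1, a mitotic kinase, was the highest member per length (19.6 ± 3.74 FPKM) and the least variable, at 55.1, 43.3 and 44.2 CPM. S phase genes showed the same high library with smaller gaps: replicate 1 was highest in 25 of 26 and none reached 2-fold. The share of all kept genes highest in replicate 1 is not given beside that count. The helicase subunit Mcm5 had 47.8, 33.9 and 32.1 CPM and the sliding clamp Pcna 83.1, 74.3 and 80.1 CPM. The list mean ranged over 1.23 log2 in mitosis and 0.44 log2 in S phase. The mitotic gap rests on replicate 1. Between replicates 2 and 3, 0 of 24 differed 2-fold, against 8 between replicates 1 and 2 and 20 between 1 and 3. The share of nuclear FPKM held by the list was 0.0727, 0.0395 and 0.0341%.

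Because these mitotic genes moved together, their promoter windows (250 bases before to 50 after the RefSeq start, GRCm38.p6) were searched for letters on both strands. TTTGAA, the core of the cell cycle homology region, was found in 16 of 21 windows of 20 kept mitosis genes (76.2%), in 4 of 30 windows of 23 S phase genes (13.3%) and in 17.9% of all 32851 windows. CCAAT was found in 19 of the 21 mitosis windows (90.5%), 16 of the 30 S phase windows (53.3%) and 37.4% of all windows. The windows of Ube2c (chr2:164769679-164769978, plus strand) and Ccnb2 (chr9:70421505-70421804, minus strand) are shown, as the 2 mitosis genes of widest range that hold TTTGAA, written 5′ to 3′ with TTTGAA or its reverse complement in capitals. In Ube2c the capitals start 29 bases before the start site, in Ccnb2 167 bases before it and 4 bases after it. A match describes letters only.
Ube2c: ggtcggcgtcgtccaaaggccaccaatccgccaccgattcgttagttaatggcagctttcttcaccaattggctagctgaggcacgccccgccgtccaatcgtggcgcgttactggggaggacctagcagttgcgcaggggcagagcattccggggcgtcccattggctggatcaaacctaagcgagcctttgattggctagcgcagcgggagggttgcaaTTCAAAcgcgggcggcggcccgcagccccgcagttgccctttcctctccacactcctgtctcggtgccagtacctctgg
Ccnb2: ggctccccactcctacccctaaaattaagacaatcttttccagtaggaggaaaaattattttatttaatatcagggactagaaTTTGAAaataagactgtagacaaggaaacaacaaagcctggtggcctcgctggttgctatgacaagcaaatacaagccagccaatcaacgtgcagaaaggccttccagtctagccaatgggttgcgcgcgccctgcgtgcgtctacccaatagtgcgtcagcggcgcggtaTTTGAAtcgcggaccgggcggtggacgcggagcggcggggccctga

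Enteroendocrine genes differed in another order. Of 34 genes 31 were kept, and 21 were variable (67.7%), but the median member stood at 1.86 CPM, where the background is high. Of the 7 at 10 CPM or more, 3 were variable (background 2.78%). Replicate 3 was highest in 27 of the 31. Peptide YY (Pyy) had 8.61, 10.8 and 24.6 CPM, proglucagon (Gcg) 19.6, 22.3 and 44.8 CPM and chromogranin A (Chga) 25, 29.7 and 52.5 CPM. Insl5, a peptide of colonic L cells, had 5.06, 4.07 and 11.3 CPM. Secretin (Sct) did not share the pattern, with 9.79, 8.0 and 8.16 CPM. The pattern rests on replicate 3: 18 and 14 genes differed 2-fold between it and replicates 1 and 2, against 3 between replicates 1 and 2. Tuft cell genes were low, with 6 of 21 variable (28.6%) and their channel Trpm5 at 3.25, 4.1 and 5.79 CPM. The median tuft gene stood at 2.98 CPM, and from 1 to 10 CPM 22.7% of all kept genes were variable. At 10 CPM or more 0 of 2 tuft genes were variable.

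**Figure D4:**
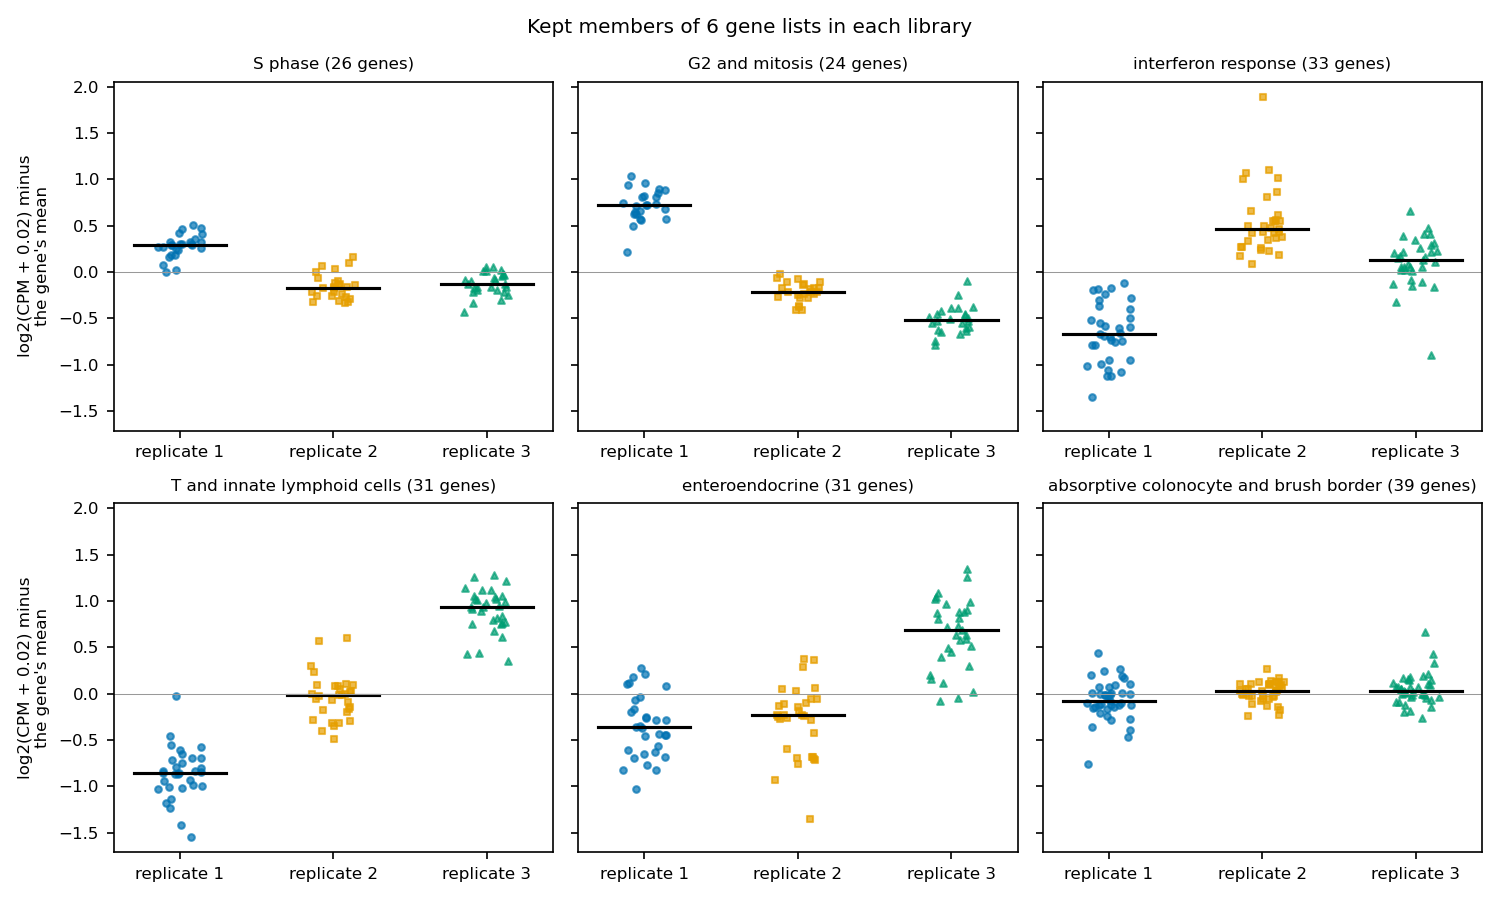
Log2(CPM + 0.02) of each kept member of 6 gene lists minus the gene's own mean, by library, with the list median as a black line. Replicate 1 is high in mitosis (24 of 24 genes), replicate 2 in the interferon response (30 of 33) and replicate 3 in T cell (30 of 31) and enteroendocrine genes (27 of 31), while the absorptive genes lie near 0 in all 3.

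Interferon-stimulated genes made a further group. Of 33 genes, all kept, 21 were variable (63.6%), and 13 of 24 at 10 CPM or more (background 2.78%). Replicate 2 was highest in 30 and replicate 1 lowest in 31. Oas2, a sensor of double-stranded RNA, had 9.07, 41.9 and 32.1 CPM. Ifit1, which binds foreign RNA caps, had 32.2, 81.9 and 64.7 CPM, the ubiquitin-like Isg15 16.5, 33.5 and 31.9 CPM and the guanylate-binding protein Gbp2 8.18, 36.2 and 19.2 CPM. The highest members per length differed less: Ifi27l2b had 91.2, 149 and 133 FPKM and 0.77 log2 CPM of range, and the transcription factor Irf7 37.9, 64.1 and 63.8 FPKM and 0.93 log2 CPM. By pairs, 20 of 33 differed 2-fold between replicates 1 and 2, 11 between 1 and 3 and 3 between 2 and 3, so the gap is mainly that of replicate 1 to the others.

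Antigen presentation followed the same low library. Of 8 kept MHC class II genes 6 were variable (75.0%, against 15.2% of all kept genes), all of them 2-fold apart between replicates 1 and 2. The invariant chain Cd74, the highest, had 63.1, 130.2 and 107 CPM, H2-Ab1 18.2, 43.2 and 34.6 CPM and the class II activator Ciita 2.6, 6.19 and 4.97 CPM. Between replicates 2 and 3 none of the 8 differed 2-fold. B2m, the light chain of class I, had 377, 564 and 492 CPM and H2-K1 647, 856 and 923 CPM. Of 21 class I genes 3 were variable (14.3%), and 3 of 19 at 10 CPM or more (background 2.78%). These were H2-Q6 at 6.58, 17.7 and 26.8 CPM, H2-Q7 at 9.58, 18.7 and 26.3 CPM and the class I activator Nlrc5 at 6.9, 15.9 and 15.8 CPM. H2-Q genes are near-identical copies, so their separate counts are uncertain.

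The promoter windows of the interferon list were searched for GAAANNGAAA, the core of the interferon-stimulated response element, on both strands, a search chosen after the values were seen. It was found in 14 of 24 windows of 21 genes (58.3%) and in 3.44% of all windows. TATAAA was found in 20.8% of the 24 windows and 13.6% of all windows. Gbp2 (chr3:142620413-142620712, plus strand) and Gbp7 (chr3:142530086-142530385, plus strand) are shown, as the 2 members of at least 1 CPM and widest range that hold the letters, in capitals as their reverse complement, starting 59 and 53 bases before the start site. Gbp7 had 3.13, 13.1 and 6.76 CPM, with replicate 2 highest, as in Gbp2.
Gbp2: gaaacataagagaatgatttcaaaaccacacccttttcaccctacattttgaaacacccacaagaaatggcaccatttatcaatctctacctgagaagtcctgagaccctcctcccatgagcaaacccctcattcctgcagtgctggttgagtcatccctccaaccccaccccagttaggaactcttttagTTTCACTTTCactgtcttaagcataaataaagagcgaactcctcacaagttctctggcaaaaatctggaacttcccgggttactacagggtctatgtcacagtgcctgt
Gbp7: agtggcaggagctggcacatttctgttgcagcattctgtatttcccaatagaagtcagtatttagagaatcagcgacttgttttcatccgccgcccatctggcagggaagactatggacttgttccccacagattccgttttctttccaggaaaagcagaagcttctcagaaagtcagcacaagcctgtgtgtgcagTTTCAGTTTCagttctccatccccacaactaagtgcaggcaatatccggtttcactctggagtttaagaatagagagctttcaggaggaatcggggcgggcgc

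T cell and innate lymphoid genes had the widest list profile of all 43, 1.75 log2, at a summed share of 0.0176, 0.0291 and 0.0594% of nuclear FPKM in replicates 1, 2 and 3. Of 33 genes 32 were in the table, 31 were kept and 29 were variable (93.5%, against 15.2% of all kept genes). The median member stood at 3.05 CPM, a level where the background is higher, 22.7% from 1 to 10 CPM. Only 4 members reached 10 CPM, and all 4 were variable (background 2.78%). Replicate 3 was highest and replicate 1 lowest in 30 of the 31 each. The pan-leukocyte phosphatase Ptprc had 15.6, 33.4 and 60.4 CPM. Cd7, found on intraepithelial lymphocytes, had 6.71, 8.9 and 21.7 CPM, the chemokine Ccl5 4.15, 8.27 and 17, the T cell receptor subunit Cd3e 2.39, 4.27 and 7.64, and granzyme B (Gzmb) 3.58, 6.78 and 10.8 CPM. The gap did not rest on 1 library alone, since 13 of 31 also differed 2-fold between replicates 2 and 3, 9 between 1 and 2 and 29 between 1 and 3. By list mean, B and plasma cell genes had the same high and low libraries. Of them 8 of 9 were variable (88.9%, against 22.7% of all kept genes from 1 to 10 CPM). The IgA heavy chain Igha had 4.5, 7.59 and 14.6 CPM. Only 9 of their 20 passed the filter, and their median stood at 3.81 CPM. The 1 gene at 10 CPM or more was not variable, and the summed CPM, 309, 262 and 294, was highest in replicate 1. Among myeloid genes 10 of 15 were variable, at a median of 1.64 CPM, but 0 of the 2 at 10 CPM or more. From 1 to 10 CPM, 22.7% of all kept genes were variable. The lysozyme Lyz2 had 1.2, 1.54 and 3.78 CPM. The largest share of nuclear FPKM that a leukocyte list reached in any library was 0.0594%, that of the T cell list in replicate 3. By list mean, MHC class II, interferon and leukocyte genes shared their low library, replicate 1, and the part of the leukocytes in the other values was not tested.

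**Figure D5:**
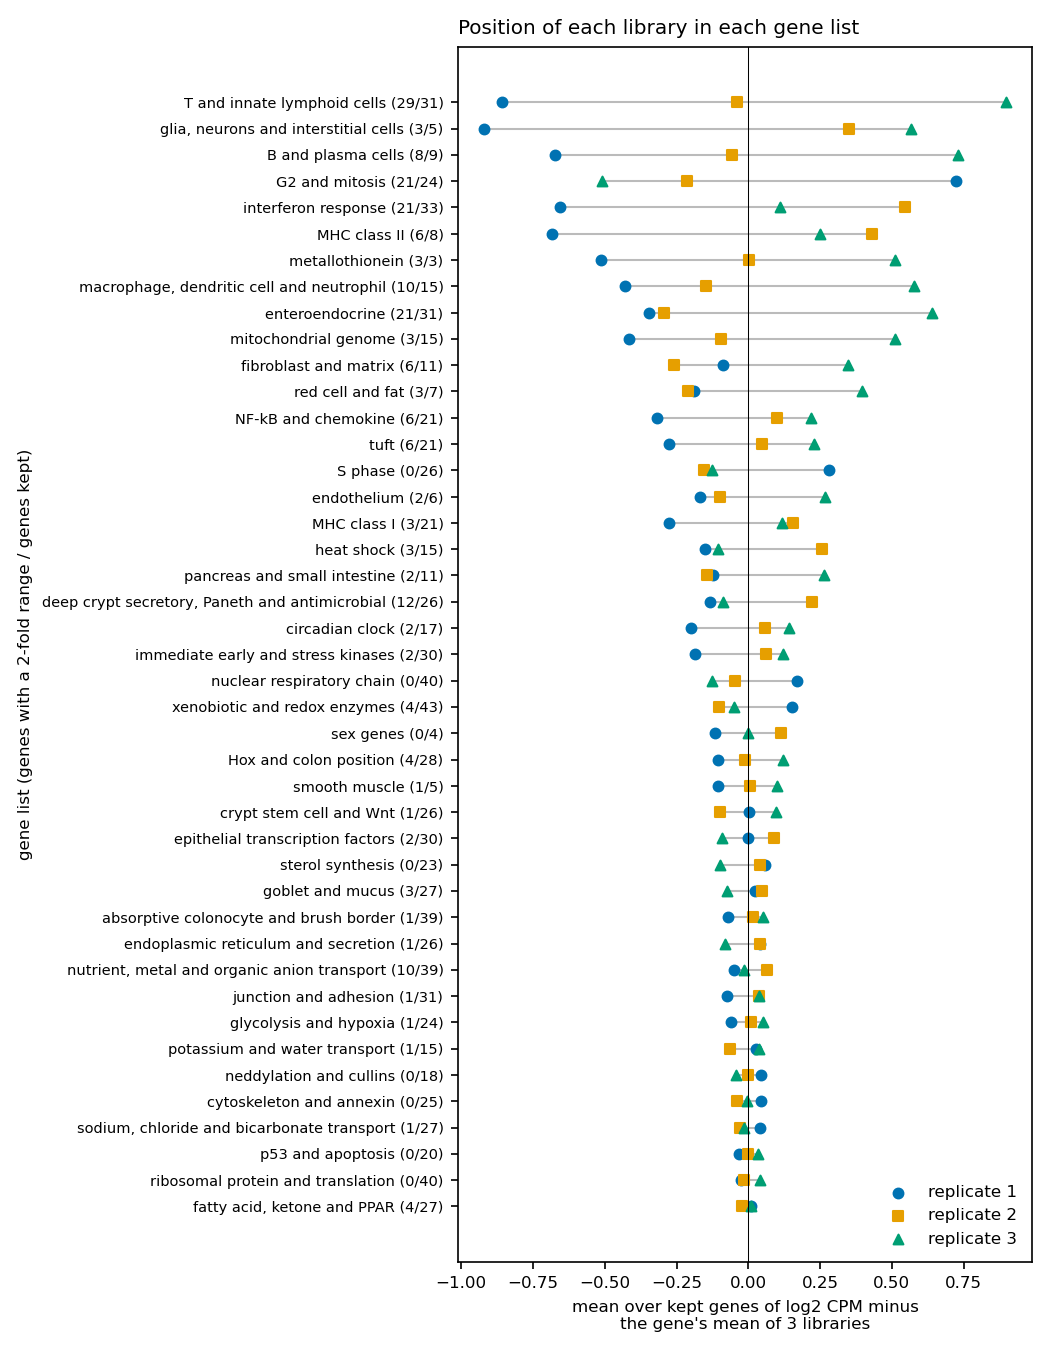
Position of each library in 43 gene lists, as the mean over kept genes of log2 CPM minus the gene's mean of 3 libraries, with circles, squares and triangles for replicates 1, 2 and 3 and the count of variable over kept genes in brackets. T cell, mitosis and interferon lists range over more than 1 log2 and have different high libraries, while transport, ribosomal and absorptive lists range over less than 0.15 log2.

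Mitochondrial and nuclear genes of oxidative phosphorylation lay in opposite orders. All 15 mitochondrial genes of the list were highest in replicate 3 and 14 were lowest in replicate 1. The 12S ribosomal RNA mt-Rnr1 had 776, 2076 and 3333 CPM and the 16S ribosomal RNA mt-Rnr2 1444, 2515 and 4535 CPM. The libraries were selected for polyadenylated RNA, so these levels are those of the captured fraction. mt-Nd4, a subunit of complex I, had 6150, 7609 and 12365 CPM. Of 40 nuclear respiratory chain genes none was variable, but replicate 1 was highest in 36 and replicate 3 lowest in 32. How often these libraries are highest or lowest over all kept genes is not given, so the counts have no background. ATP synthase subunit Atp5f1b had 1727, 1421 and 1295 CPM and cytochrome c1 (Cyc1) 326, 259 and 228 CPM. The share of nuclear FPKM held by the nuclear genes was 2.13, 1.88 and 1.76%. The highest and lowest library of the nuclear list did not change when mitochondrial genes and their copies were left out before scaling. That setting hardly altered the scaling, which moved replicates 1 and 3 apart by 0.15 log2 either way. It holds no mitochondrial genes, so the opposition of the orders was not rechecked by it. Among glycolytic enzymes the highest was aldolase A (Aldoa), at 299 ± 34.6 FPKM.

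Immediate early genes were among the highest transcripts. The 30 genes of that list took 2.88 ± 0.209% of nuclear FPKM. Fos (chr12:85473890-85477273, plus strand) had 1221, 1225 and 1036 FPKM, Atf3 668, 807 and 735, Jun 679, 722 and 647, Ier2 515, 457 and 461 and Egr1 438, 445 and 403 FPKM. Fos, Jun and Egr1 varied by at most 0.15 log2 CPM. Variable members were 2 of 30 (6.67%, against 15.2% of all kept genes). The 2 were Nr4a2, an orphan nuclear receptor, at 24, 39.1 and 52.2 CPM and the phosphatase Dusp2 at 0.592, 1.86 and 2.27 CPM. At 10 CPM or more 1 of 29 was variable (background 2.78%). With library totals in place of TMM, Nr4a2 was no longer past 2-fold. The cells had been kept at 37 °C for 30 min before lysis in all libraries, and the part of that step in these levels was not tested. Heat shock genes were high as well: Hspa8 had 637 ± 85.2 FPKM and Hsp90ab1 517 ± 40.7 FPKM. The inducible chaperones Hspa1a and Hspa1b had 264, 732 and 385 and 457, 1126 and 616 CPM, with replicate 2 highest in both. These neighbours are near-identical, so their separate counts are uncertain.

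The promoter of Fos is shown because it belongs to the highest nuclear transcription factor and holds TATAAA, the letters of a core promoter box, in capitals from 33 bases before the start (chr12:85473640-85473939, plus strand, GRCm38.p6). TATAAA was found in 20 of 87 windows (23%) of 73 genes among the 100 highest nuclear coding genes and in 13.6% of all windows. TGACGTCA, the cyclic AMP response element, was in 3 of 29 immediate early windows (10.3%) and in 1.79% of all.
Fos: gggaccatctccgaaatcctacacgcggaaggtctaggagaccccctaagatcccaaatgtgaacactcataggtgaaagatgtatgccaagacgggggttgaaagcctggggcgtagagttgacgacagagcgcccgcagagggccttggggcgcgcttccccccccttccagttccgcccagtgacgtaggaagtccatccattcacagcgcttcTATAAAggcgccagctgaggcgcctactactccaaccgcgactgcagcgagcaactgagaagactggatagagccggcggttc

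Several lists held no variable gene. In lists of 18 to 40 genes that is near the background, 2.78% of all genes of at least 10 CPM. All 40 ribosomal and translation genes, 25 cytoskeleton genes, 23 sterol synthesis genes, 20 p53 and apoptosis genes and 18 neddylation and cullin genes had ranges under 2-fold, though with library totals 1 sterol gene passed it. The median member range was 0.09 log2 for the ribosomal list. Rpl4 had 1019, 998 and 995 CPM. Among fatty acid and ketone genes 4 of 27 were variable (14.8%, against 15.2% of all kept genes), in opposed directions. At 10 CPM or more 4 of 26 were variable (background 2.78%). The desaturases Scd1 and Scd2 were highest in replicate 1, at 25.3, 8.41 and 9.53 and 302, 153 and 109.5 CPM. Creb3l3, a membrane-bound transcription factor of lipid metabolism, and Pdk4, which restrains pyruvate oxidation, were lowest there, at 10.3, 27.4 and 43.1 and 49.7, 108 and 92.7 CPM. Of 43 kept xenobiotic and redox enzymes 4 were variable (9.3%), and 4 of 42 at 10 CPM or more (background 2.78%). Cyp2c55, a colonic cytochrome P450, was highest with 497 ± 88.4 FPKM. The carboxylesterase Ces1f had 139, 59.2 and 65.4 CPM and the glutathione transferase Gstm3 59.9, 28.2 and 27.8 CPM, both highest in replicate 1, and Cyp4b1 was highest in replicate 3 with 39.3, 54.1 and 99 CPM. The metallothioneins Mt1 and Mt2, which bind zinc, were lowest in replicate 1, with 38.5, 85.1 and 87.2 and 13.4, 42.7 and 41.9 CPM.

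Positional and lineage factors had variable shares near or below the background. Among 30 epithelial transcription factors 2 were variable, and none of the 27 at 10 CPM or more. Of the Hox and colon position list, 4 of 28 kept were variable (14.3%), and none of the 14 at 10 CPM or more. Elf3 led the epithelial factors with 324 ± 44.3 FPKM. Klf4 (215 ± 30.8), Cdx1 (177 ± 30.7) and Hnf4a (174 ± 19.8) followed, and their libraries overlapped. Cdx2, which specifies intestinal identity, had 121, 95.7 and 78.8 FPKM. Hoxb13, a hindgut Hox gene, had 27.1, 29.3 and 28.1 FPKM. Of the pancreas and small intestine list the highest was Sycn, a zymogen granule protein, with 155, 157 and 137 FPKM and a range of 0.07 log2 CPM.

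Across named genes of at least 10 CPM, with gene models passed over, the widest ranges lay partly outside these programmes. Slc15a2, a peptide transporter, was first with 5.16, 0.998 and 26.2 CPM, a 25.6-fold gap, and Ang4 second. Hnrnpa3, an RNA-binding protein, had 59.4, 12.4 and 67.5 CPM, with replicate 2 as the single low library. Cpne1, a copine, had 5.33, 32.4 and 28.3 CPM and the kinase Abl2 27.4, 34.3 and 6.31 CPM. Of the 20 widest genes, 11 overlap another GENCODE M21 gene on either strand, among them Slc15a2, Cpne1, Hnrnpa3, Abl2, Ptpn22, Coro1a, Ets1 and Dock10. It is not known whether the libraries keep strand, so counts of overlapping genes cannot be told apart. No share of overlapping genes over all kept genes is given here, so 11 of 20 cannot be read as a trait of wide ranges. Of the overlapping genes named, Ptpn22, Coro1a, Ets1 and Dock10 are expressed in leukocytes. Each was highest in replicate 3 and lowest in replicate 1, for example Coro1a with 4.64, 10.2 and 19.5 CPM. Slfn4, an interferon-induced Schlafen gene, had 32, 163 and 125 CPM and the apolipoprotein Apoe 5.07, 10.9 and 23.2 CPM. At the other end, the RNA ligase Rtcb had 111, 111 and 111 CPM and the lysosomal mannosidase Manba 22.3, 22.3 and 22.4 CPM.

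Of the genes the study centres on, Ptprn was the lowest in unchallenged epithelium. Ube2f had 3.46, 4.12 and 2.92 FPKM in replicates 1, 2 and 3, and 32.1, 39.9 and 30.6 CPM. Nedd8, the protein it passes on, had 27.3, 22.9 and 18.3 FPKM, and Ube2m, the other E2 for NEDD8, 23, 19.4 and 17.8 FPKM, above Ube2f in every library. Stat5b had 4.55, 4.92 and 5.37 and Stat5a 1.71, 1.63 and 1.64 FPKM. Ptprn, a receptor phosphatase of dense-core granules and a member of the enteroendocrine list, had 0.115, 0.264 and 0.26 FPKM from 43, 90 and 78 counts.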

How the data were processed

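Per the file headers, each gene of the deposited table has a raw count and an FPKM value for every library. The deposited counts are whole numbers, and the authors' FPKM values follow gene length and library size. The submitters' processing notes name cutadapt 1.9, HISAT2 2.2.1, StringTie 2.1.6, edgeR, DESeq2 and the build mm10. The series text adds selection with oligo(dT) and sequencing from both ends. The treatment of multimapping reads and of strand is not given in these sources. In GENCODE M21 (GRCm38), 26774 gene IDs were found, of which 517 had the table's coordinates, so printed positions are those of M21, looked up by ID. Promoter windows are RefSeq's on GRCm38.p6, and symbols missing from the table were matched through M21.

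The 3 Ube2f_flox libraries entered, and no test was made, since 1 group holds no contrast. Counts were filtered with filterByExpr, scaled by TMM and turned into log2 CPM with a prior count of 2 (edgeR 4.0.16, limma 3.58.1, R 4.3.3). Dispersion was estimated with an intercept alone. The 43 lists were described by the number of members with a 2-fold range and by the mean of log2 CPM minus each gene's mean. Pairwise counts within a list use the same filter and scaling. Members and lists were chosen with earlier results of these data known. Genes were named by rule: the 30 of highest mean FPKM, up to 6 highest and 4 widest members of a list, the 20 widest and 5 narrowest genes of at least 10 CPM, and Ube2f, Ptprn, Stat5a and Stat5b. Other genes named, among them Cdh1, Vil1, Cdhr5, Tff3, Zg16, Slc26a3, Slc9a3, Slc9a2, Cftr, Slc5a8, Lgr5, Olfm4, Lyz1, Trpm5, Cd3e, Ptprc, Gbp7, Col1a1 and Acta2, were chosen for their role after values had been seen. Some genes that the rule names are not reported here. Terms of the table were ranked by variable members, and 1984 of their GO cells were withheld.

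The smallest library had 63247380 and the largest 77524693 counts. The floor of 3 counts equals 0.0387 CPM in the largest and 0.0474 CPM in the smallest, and it covers counting error only, because PCR copies of a molecule cannot be recognised. Chi-square values per degree of freedom between pairs of libraries were 72.5 to 177, far above sampling noise, and each library counted as 1 replicate. On simulated data of 16004 genes with a true coefficient of variation of 20%, 22.0% was estimated, 197 of 199 genes changed 4-fold were past 2-fold, and so were 6.06% of the others. At a true 10 and 30%, 13.8 and 31.2% were estimated, and 0.523 and 25.2% of the others were past 2-fold. All genes of a simulated run had the same true coefficient. In the data the estimate was 15.1% at 10 CPM or more and 35.5% without a filter, so the simulation does not stand for their spread. Alternatives were library totals, DESeq2 1.42.0 size factors, other filters and folds, log2(FPKM + 0.1) and log2(FPKM + 1), and leaving out each replicate. Scaling without mitochondrial genes was added after seeing the data.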

Additional observations from a re-analysis of the deposited data

How the results depend on the processing

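No paired analysis was possible because 1 group was described and no groups were compared. The number of expressed genes was 10649 at 1 FPKM and 16002 at 10 counts in each library. The 10 and 100 highest genes held 40.2 and 61.8% of FPKM, 9.89 and 27.9% without mitochondrial genes and copies, and 18.2 and 36.55% of counts. Genes with a 2-fold range numbered 2426, against 1249 with a mean of at least 1 CPM, 269 at 10 CPM, 9815 with no filter beyond 1 count, 284 on log2(FPKM + 1), 1451 on log2(FPKM + 0.1), 4912 for a 1.5-fold and 853 for a 3-fold range, and 983 to 1643 when 1 replicate was left out, lowest without replicate 1. The median range was 0.36 log2, against 0.41 with library totals, 0.30 at 1 CPM, 0.23 at 10 CPM, 0.66 without a filter, 0.25 on log2(FPKM + 1), and 0.17 to 0.25 when 1 replicate was left out. For the same scaled values, a range over fewer libraries cannot exceed that over all 3. The lower counts and ranges with 1 replicate left out were therefore fixed in advance. The coefficient of variation was 22.99%, against 15.1% at 10 CPM, 35.5% without a filter, and 18.2 to 26.6% when 1 replicate was left out. DESeq2 size factors, and scaling without mitochondrial genes (added after seeing the data), left these within 1.5 times or the spread. Of 43 lists, the highest library changed in 10 and the lowest in 15 with library totals, in 1 and 0 with DESeq2 size factors, and in 14 and 18 on log2(FPKM + 1). Lists of wider profile changed too: on log2(FPKM + 1) the lowest library changed in the enteroendocrine list, and with library totals it changed in S phase, heat shock and antimicrobial genes and the highest in immediate early and clock genes. Under 1 CPM, where counts are fewest, 43.4% passed 2-fold, and the part of counting error in that share was not tested.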

Other observations

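Of 2377 annotation terms with 10 to 200 kept genes, the median term had 9.38% variable members. The highest shares belonged to defence terms: defense response to protozoan had 13 of 15 variable (86.7%) and defense response to other organism 9 of 11 (81.8%). Cellular response to interferon-beta had 14 of 24 (58.3%) and integrin complex 8 of 13 (61.5%). The median gene stood at 5.65 CPM in the protozoan term, 1.70 in other organism, 10.5 in interferon-beta and 3.41 in integrin complex. Below 10 CPM, 22.7 to 43.4% of all kept genes were variable, so terms of low level start from a higher background. In the protozoan and interferon-beta terms the mean was lowest in replicate 1, and in the integrin term replicate 3 was highest. High-density lipoprotein particle had 8 of 14 variable (57.1%), with replicate 1 lowest and replicate 3 highest.

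Of 21 kept inflammatory genes (the NF-kB and chemokine list), 6 were variable, none of them among the 11 at 10 CPM or more. Below 10 CPM, 22.7 to 43.4% of all kept genes were variable. The cytokine Il1b had 1.21, 5.47 and 10.3 CPM and the adhesion molecule Icam1 4.36, 9.16 and 12 CPM, both lowest in replicate 1. Nfkbia, the inhibitor that NF-kB itself induces, stood at 119.8 ± 4.76 FPKM (SD, n = 3) and a range of 0.15 log2 CPM. Between replicates 2 and 3 none of the 21 differed 2-fold. Among clock genes, 2 of 17 were variable (11.8%, against 15.2% of all kept genes). At 10 CPM or more 1 of 15 was variable (background 2.78%). Nr1d1, a repressor of the clock loop, was highest per length with 94.9, 90.5 and 63.9 FPKM.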
